A study of Mus musculus with 6 samples.

Results

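The 9 genes described here are the CCN genes Ctgf, Cyr61, Nov, Wisp1 and Wisp2 (now Ccn2, Ccn1, Ccn3, Ccn4 and Ccn5) and 4 further genes commonly read as targets of the co-activator YAP, namely Ankrd1, Thbs1, Axl and Gadd45a. They were taken by gene symbol from a table of 24421 symbols, and all 9 were found and passed the filter on low counts. Gene coordinates below are from GENCODE on GRCm38, the build of the files. CCN proteins are secreted matricellular proteins, which sit in the extracellular matrix, bind integrins and growth factors and change how cells respond to them. YAP and its relative TAZ carry no DNA-binding domain of their own and act through TEAD transcription factors. When the Hippo kinases MST1/2 activate LATS1/2, LATS1/2 phosphorylate YAP, and it is held in the cytoplasm. When these kinases are off, YAP enters the nucleus and its targets are transcribed. In the neonatal cochlea YAP is studied for its part in supporting cell (SC) proliferation and in the regeneration of hair cells (HCs), the sensory cells of hearing. Ctgf, Cyr61 and Ankrd1 are the genes most often measured as a readout of YAP activity.

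RNA was sequenced from cochlear explants of wild-type mice at postnatal day 2, 3 samples in the control and 3 in the neomycin group, and every sample pooled 6 to 8 cochleae. Neomycin is an aminoglycoside antibiotic that kills HCs. The protocol in the labels describes 12 h of culture, neomycin at 1 mM for 6 h and 5 more days with the thymidine analogue EdU at 10 μM, and it stands in the same words at all 6 samples, so the control explants are taken as those without neomycin from their treatment label alone. According to the methods, the stria vascularis, modiolus and tectorial membrane were removed before culture. The labels do not say whether the pools share litters or culture days, and the p-values measure the spread between these pools.

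Libraries held between 50471116 and 66068108 counted reads, so counting error is small for all of these genes but Wisp2 and Wisp3. Of 12 HC markers all were lower after neomycin at an adjusted p under 0.05, and their summed level was 868 to 1017 counts per 1000000 counted reads (CPM, scaled by TMM) in control and 302 to 355 CPM in neomycin libraries. A gene is counted as called where it had an adjusted p under 0.05 and a fold change over 1.5. Of all genes tested, 6.60% were called lower and 2.24% higher. By adjusted p alone, 16.1% were lower and 12.9% higher, and the marker counts stand beside these shares. Of 10 SC markers 4 were lower and 1 higher by adjusted p, with Prox1 (log2 fold change -1.46) and Fgfr3 (-0.66) called lower. Their sum was 1702 to 2014 CPM in control and 1666 to 2148 CPM after neomycin, and without Tecta, the most abundant of them, 867 to 930 CPM and 755 to 904 CPM. Of 7 endothelial markers 5 were called lower, led by Cldn5 (log2 fold change -3.40) and Tie1 (-2.83). Emcn (0.12, edgeR adjusted p = 0.329) and Tek (-0.21, edgeR adjusted p = 0.396) were not. The list summed to 277 to 310 CPM in control and 266 to 316 CPM after neomycin. Emcn made up most of that sum, and the other 6 went from 38.8 to 51.1 CPM in control to 18.2 to 20.2 CPM. No marker was at 0 in every library. Of 8 macrophage markers 3 were higher by adjusted p, C1qa and C1qc called and C1qb not, and the list summed to 70.7 to 94.6 CPM in control and 97.0 to 122 CPM after neomycin. Of 6 neuronal markers Nefl, Nefm and Snap25 were called lower, with sums of 139 to 201 CPM and 110 to 117 CPM. Abcc9 and Notch3 were called lower among 6 pericyte and smooth muscle markers, which summed to 167 to 207 CPM and 129 to 141 CPM. Among 6 Schwann cell and glial markers, with sums of 551 to 617 CPM and 519 to 542 CPM, Erbb3 was called lower (-0.90). The mesenchymal list of 8 genes held the most RNA, 6176 to 6789 CPM in control and 6497 to 6722 CPM after neomycin, with Dcn called higher and Col1a1 called lower. In bulk tissue such as this, fewer cells of a type and less RNA per cell cannot be told apart, and the part these shifts play in the results below was not tested.

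Upstream sequence is shown first for 3 genes, 2 that fell after neomycin and 1 that did not pass the test, because each carries the TEAD-binding MCAT element CATTCC. Sequences are from RefSeq, build GRCm38.p6, 250 bases ending just before the start that RefSeq annotates, written 5′ to 3′ on the strand of the gene. For Ankrd1 the RefSeq start differs from that of GENCODE, and its window lies within the GENCODE gene (36111961 to 36120099). Capitals mark CATTCC or its reverse complement GGAATG.
Cyr61 (chr3:145649986-145650235, minus strand): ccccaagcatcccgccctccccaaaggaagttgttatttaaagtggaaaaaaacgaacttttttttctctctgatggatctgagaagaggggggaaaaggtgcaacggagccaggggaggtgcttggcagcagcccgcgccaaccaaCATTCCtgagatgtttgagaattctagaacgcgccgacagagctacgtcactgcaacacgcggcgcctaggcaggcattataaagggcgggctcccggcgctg
Ankrd1 (chr19:36119845-36120094, minus strand): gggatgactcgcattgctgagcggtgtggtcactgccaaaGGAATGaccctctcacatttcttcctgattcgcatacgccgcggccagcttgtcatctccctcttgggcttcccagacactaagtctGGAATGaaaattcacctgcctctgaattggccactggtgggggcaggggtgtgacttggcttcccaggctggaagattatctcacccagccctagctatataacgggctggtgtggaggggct
Axl (chr7:25788734-25788983, minus strand): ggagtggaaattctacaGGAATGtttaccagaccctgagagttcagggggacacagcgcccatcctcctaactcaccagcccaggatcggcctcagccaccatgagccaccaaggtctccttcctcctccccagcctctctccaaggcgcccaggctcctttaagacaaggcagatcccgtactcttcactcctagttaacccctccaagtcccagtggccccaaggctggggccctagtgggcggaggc

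Windows were matched for 4 of the 9 genes, the 3 above and Gadd45a. In Cyr61 the element begins 103 bases before the RefSeq start, in Ankrd1 210 and 123 bases before it, and in Axl 233 bases before it. CATTCC was searched on both strands, and 14.7% of the 32851 windows of 300 bases in the table hold it. Neither the AP-1 motif TGANTCA (7.81% of windows) nor the CArG box of the serum response factor (1.63%) was matched in the 4 windows. Of these genes, Cyr61 and Ankrd1 fell and Axl did not pass the test.

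After neomycin, Ankrd1, Cyr61, Nov and Thbs1 fell, Wisp2 and Gadd45a rose, and Ctgf, Wisp1 and Axl did not pass an adjusted p under 0.05. With the fold threshold of 1.5 as well, 3 of the 9 were called, Ankrd1 and Cyr61 lower and Wisp2 higher. Over all 15988 genes tested, 8.84% were called, 6.60% lower and 2.24% higher. Without the fold threshold 6 of the 9 passed, 4 lower and 2 higher, against 29.0% of all genes (16.1% lower and 12.9% higher). The groups did not overlap for 5 of the 9, 3 lower and 2 higher, against 43.5% of all genes (22.5% lower and 21.0% higher). The median log2 fold change of the 9 was -0.30, beside 0.00 over all genes tested, and single values ran from -1.16 to 0.79.

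**Figure D1:**
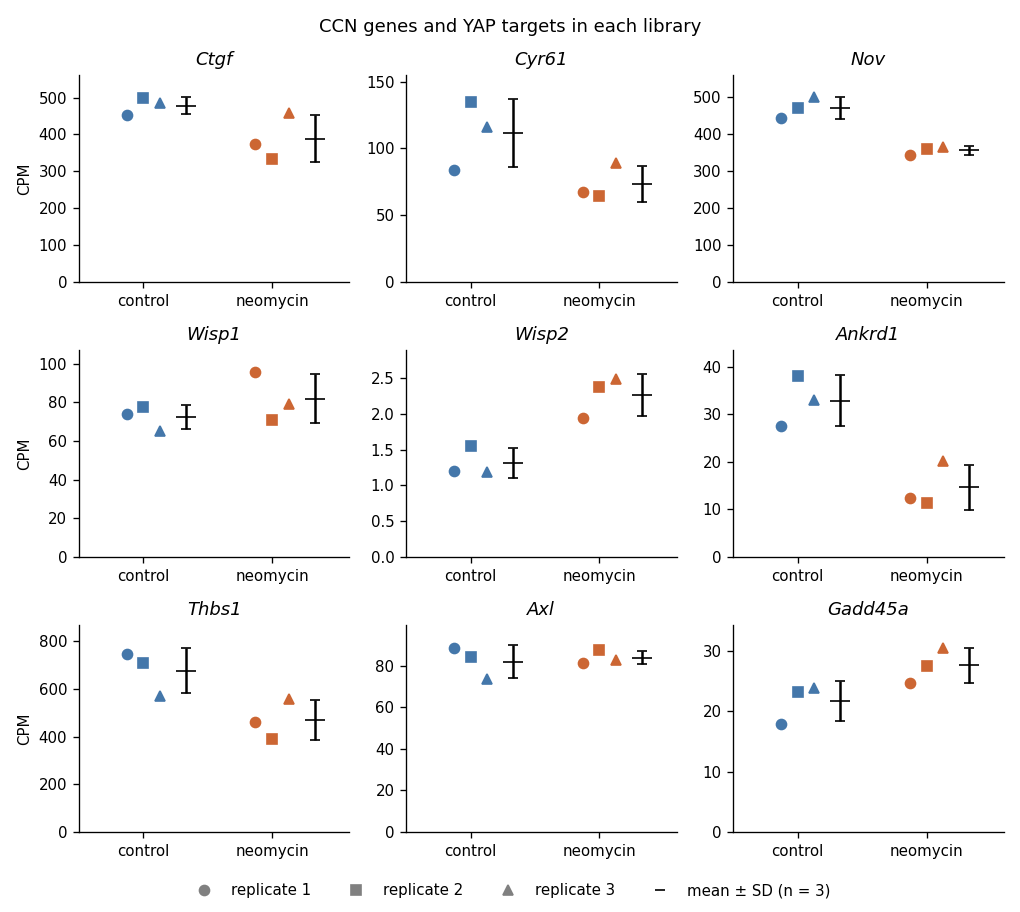
Level of each of the 9 genes in CPM (linear axis from 0) in the 3 control and 3 neomycin libraries; symbols mark the replicate, and the bar beside them is the mean ± SD (n = 3). The 3 neomycin libraries lie wholly below the controls for Nov, Ankrd1 and Thbs1 and wholly above them for Wisp2 and Gadd45a.

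Ankrd1 (chromosome 19, 36111961 to 36120099, minus strand) encodes an ankyrin repeat protein of the sarcomere and nucleus that is induced by mechanical load, and it had the largest change of the 9. It stood at 27.5, 38.1 and 33.1 CPM in control replicates 1, 2 and 3, and at 12.5, 11.4 and 20.1 CPM in neomycin replicates 1, 2 and 3. No neomycin library reached the lowest control, and neomycin replicate 3 was clearly higher than the other two. From control to neomycin the mean went from 32.9 ± 5.29 (SD, n = 3) to 14.7 ± 4.76 CPM, by -1.16 ± 0.18 on the log2 scale (fitted change ± standard error, edgeR adjusted p = 0.000878), or 2.24-fold lower. It was the only member called in all of the alternatives, with values between -1.46 and -1.01. Its relatives in the muscle ankyrin repeat family gave no such call. Ankrd23 stood at 13.01 ± 0.428 and 13.04 ± 1.15 CPM and Ankrd2 was too low to test.

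Cyr61 (chromosome 3, 145646976 to 145649981, minus strand) encodes CCN1, an integrin ligand that promotes adhesion and migration and is also an immediate early gene. Its control libraries spread widely, at 83.8, 134 and 116 CPM, and the neomycin libraries stood at 67.4, 64.2 and 89.2 CPM. The groups overlapped, because neomycin replicate 3 lay above control replicate 1. The mean fell from 112 ± 25.7 to 73.6 ± 13.6 CPM, by -0.60 ± 0.15 on the log2 scale (fitted change ± standard error, edgeR adjusted p = 0.0132), or 1.51-fold lower, which is just past the fold threshold. Leaving out control replicate 2 raised the adjusted p to 0.0790, leaving out neomycin replicate 2 raised it to 0.0734, and DESeq2 gave 0.0521. The fold dropped under the threshold without control replicate 3 (log2 fold change -0.55) or neomycin replicate 1 (-0.54) and with upper quartile scaling (-0.58).

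Ctgf (chromosome 10, 24595442 to 24598683, plus strand) encodes CCN2, a cofactor of TGF-beta in matrix production. Control libraries lay close together at 452, 498 and 484 CPM, while neomycin libraries stood at 374, 334 and 458 CPM. Replicates 1 and 2 of the neomycin group were below every control, and replicate 3 lay within the control range. With means of 478 ± 23.6 and 389 ± 63.3 CPM, the log2 fold change was -0.30 (95% interval -0.53 to -0.07, unadjusted) with an adjusted p of 0.0529. Without neomycin replicate 3 the value was -0.43 (adjusted p = 0.0117, edgeR). Ctgf also passed by DESeq2 (adjusted p = 0.0196), by limma-voom (0.0441) and without a filter on low counts (0.0318). With a correction for gene length it passed as well (-0.39, edgeR adjusted p = 0.0107). It did not pass when any other single library was left out. The edgeR adjusted p then ran from 0.0584 (without control replicate 1) to 0.247 (without neomycin replicate 2, log2 fold change -0.20). Nor did it pass in edgeR with upper quartile scaling (0.0706) or DESeq2 size factors (0.0580). Gm15270 overlaps Ctgf on the opposite strand, and reads of the pair cannot be told apart if counting ignored strand.

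Nov (chromosome 15, 54745702 to 54754039, plus strand) encodes CCN3, often described as opposing CCN2 in fibrosis models. It stood at 441, 470 and 500 CPM in control and 342, 359 and 364 CPM in neomycin libraries. The groups were well apart, and the coefficient of variation among neomycin libraries was 3.30%. The mean fell from 471 ± 29.5 to 355 ± 11.7 CPM, by -0.41 ± 0.08 on the log2 scale (fitted change ± standard error, edgeR adjusted p = 0.00307). Its adjusted p stayed under 0.05 in all alternatives, at most 0.0222, but its fold of 1.33 was under the threshold.

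Wisp1 and Wisp2 encode CCN4 and CCN5, both first described as Wnt-induced secreted proteins, and CCN5 lacks the C-terminal domain of the other CCN proteins. Wisp2 (chromosome 2, 163820861 to 163833146, plus strand) was scarce, with 83, 81 and 67 reads in control and 103, 140 and 134 reads after neomycin. That is 1.2, 1.55 and 1.19 CPM against 1.94, 2.37 and 2.49 CPM, and the groups did not overlap. It rose from 1.32 ± 0.205 to 2.27 ± 0.292 CPM, which the edgeR fit gave as 0.79 ± 0.25 on the log2 scale (adjusted p = 0.0337). Its call was lost when any single library other than neomycin replicate 1 was left out (adjusted p from 0.0522 without control replicate 2 to 0.108 without neomycin replicate 3) and with the gene length correction (0.59, adjusted p = 0.102).

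Wisp1 (chromosome 15, 66891320 to 66923201, plus strand) stood at 74.1, 77.6 and 65.3 CPM in control and 95.8, 70.6 and 79.3 CPM after neomycin. The groups overlapped, and neomycin replicate 1 alone lay clearly above the controls. The log2 fold change of 0.18 (95% interval -0.05 to 0.41, adjusted p = 0.221, edgeR) shrank to 0.05 without that library. Wisp3, the remaining CCN gene, had 9, 0 and 5 reads in control and 1, 18 and 6 reads after neomycin, too few to test. A count of 0 allows up to 3 reads, or 0.0575 CPM in control replicate 2.

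Thbs1 (chromosome 2, 118111876 to 118127133, plus strand) encodes thrombospondin 1, a matrix glycoprotein that activates latent TGF-beta and restrains angiogenesis. It stood at 748, 711 and 570 CPM in control and at 461, 392 and 556 CPM in neomycin libraries. The groups did not overlap, but control replicate 3 and neomycin replicate 3 nearly met. The mean fell from 676 ± 94.3 to 470 ± 82.4 CPM, by -0.53 ± 0.13 on the log2 scale (fitted change ± standard error, edgeR adjusted p = 0.0106), a fold of 1.44. With control replicate 2 left out the adjusted p was 0.0542, and with neomycin replicate 2 left out it was 0.0658. Without control replicate 3 (-0.62) or neomycin replicate 3 (-0.66) the gene was called lower. Gm29233 overlaps Thbs1 on the opposite strand. In the thrombospondin family, Thbs2 was called lower, from 51.6 ± 3.03 to 31.7 ± 5.54 CPM (log2 fold change -0.70, edgeR, adjusted p = 0.000792). Thbs3 (0.15) and Thbs4 (-0.20) did not pass an adjusted p under 0.05, and Comp was too low to test.

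Axl (chromosome 7, 25757273 to 25788705, minus strand), a receptor tyrosine kinase of the TAM family that helps clear apoptotic cells, showed no detectable difference. It stood at 88.6, 84.1 and 73.4 CPM in control and 81.5, 87.5 and 82.8 CPM after neomycin. The neomycin libraries all lay inside the control range. The log2 fold change was 0.03, with a 95% interval of -0.14 to 0.21 (adjusted p = 0.787, edgeR), which does not include a fold of 1.5 in either direction. Gas6, the ligand of Axl, was called lower, from 47.1 ± 1.77 to 28.9 ± 1.88 CPM (log2 fold change -0.71, standard error 0.08, edgeR). The receptors Tyro3 (-0.18) and Mertk (-0.05) and the ligand Pros1 (0.07) did not pass.

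Gadd45a (chromosome 6, 67035096 to 67037457, minus strand) encodes a stress sensor that p53 also induces and that slows the cell cycle. Its levels were 17.9, 23.2 and 23.9 CPM in control and 24.7, 27.6 and 30.6 CPM after neomycin. The groups did not overlap, though control replicate 3 and neomycin replicate 1 were close. The mean rose from 21.7 ± 3.32 to 27.6 ± 2.91 CPM, by 0.35 ± 0.12 on the log2 scale (fitted change ± standard error, edgeR adjusted p = 0.0429). With the gene length correction the value was 0.14 (adjusted p = 0.332). Leaving out control replicate 1 or 2 gave an adjusted p of 0.134 or 0.0704, and leaving out neomycin replicate 2 or 3 gave 0.114 or 0.160. E230016M11Rik overlaps it on the opposite strand. The relatives Gadd45b (-0.14) and Gadd45g (0.11) did not pass. Of 12 p53 targets, 1 was higher and 5 lower at an adjusted p under 0.05, against 12.9% and 16.1% of all genes tested. Only Eda2r, which encodes a death receptor of the TNF receptor family, was called, as lower (-0.86). That is near the 8.84% of all genes called.

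**Figure D2:**
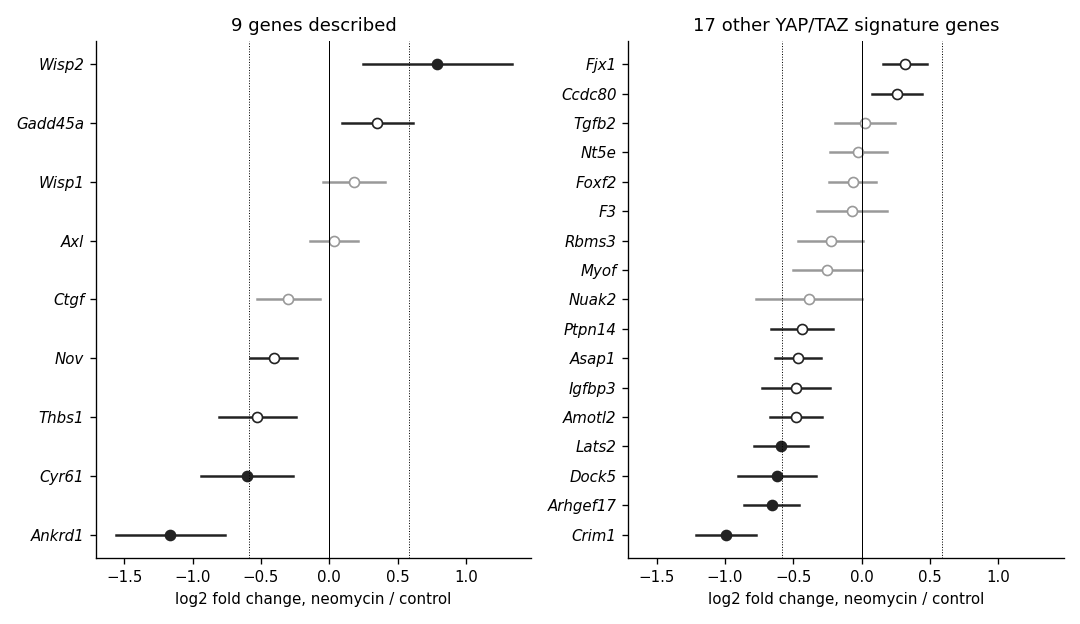
Log2 fold change of neomycin over control with its 95% interval for the 9 genes (left) and the 17 other genes of a YAP/TAZ target signature (right). Black marks an adjusted p under 0.05, grey the rest, filled points a fold over 1.5 as well, and dotted lines that fold; Ankrd1 lies lowest at -1.16 and Wisp2 highest at 0.79.

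Per length of exon, Ctgf and Nov were the most abundant of these transcripts and Wisp3 the least. In control the level was 167 ± 8.24 CPM per kb for Ctgf and 164 ± 10.3 for Nov, which overlapped. Thbs1 followed at 111 ± 15.5, Cyr61 at 55.2 ± 12.7 and Axl at 16.3 ± 1.54 CPM per kb, and their ranges were apart from each other. Wisp1 (13 ± 1.14), Gadd45a (12.3 ± 1.88) and Ankrd1 (11.4 ± 1.83) came next, below Axl in every library, and Gadd45a overlapped both Wisp1 and Ankrd1. After neomycin the order was kept at the top, while Ankrd1 dropped to 5.09 ± 1.65 CPM per kb, below all libraries of Wisp1 and Gadd45a. Wisp2 was at 0.684 ± 0.107 and then 1.18 ± 0.152 CPM per kb.

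**Figure D3:**
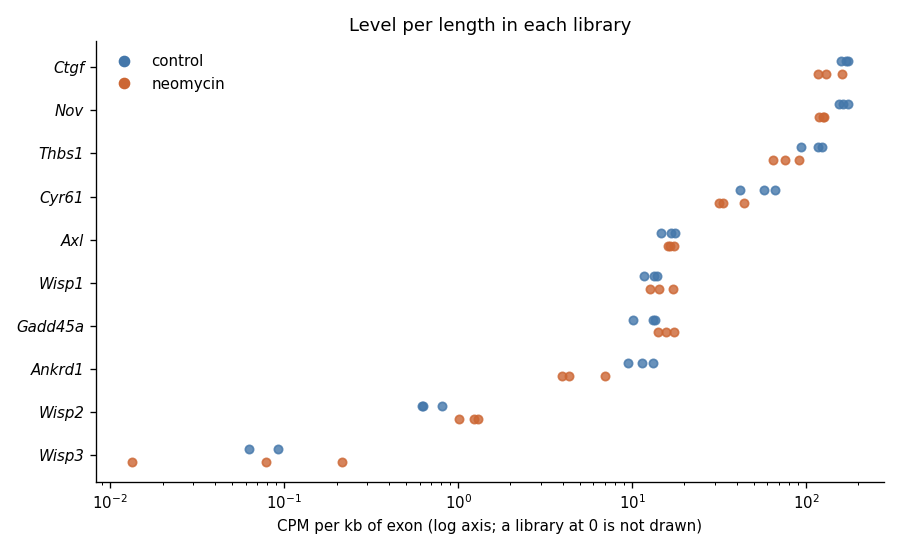
Level in CPM per kb of exon (log axis) of the 9 genes and Wisp3, with 1 point per library, blue for control and orange for neomycin. Ctgf and Nov overlap at the top, and Ankrd1 separates from Wisp1 and Gadd45a only in the neomycin libraries.

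The 6 CCN genes summed to 400 ± 28.5 CPM per kb in control and 312 ± 30.9 after neomycin. Within that sum Ctgf made up 41.8% ± 1.09 and Nov 41.0% ± 1.71 in control, and 43.4% ± 2.78 and 39.9% ± 3.43 after neomycin (SD, n = 3). Without neomycin replicate 3 the difference in share went from 1.54 to 0.148 percentage points for Ctgf and turned from -1.17 to 0.453 for Nov, and without neomycin replicate 2 it was 2.93 and -2.97. Cyr61 held 13.7% ± 2.30 and then 11.6% ± 0.963, a difference of -2.08 percentage points that was -0.989 without control replicate 2 and -3.29 without control replicate 1. The shares of Wisp1, from 3.26% ± 0.397 to 4.74% ± 0.853, and of Wisp2, from 0.171% ± 0.0213 to 0.379% ± 0.0473, were higher in every neomycin library than in any control. For both the exact two-sided permutation test gave p = 0.1, the smallest that 3 against 3 allows, and 0.3 adjusted over the 6 genes compared. These are shares of a sum that fell, and the level of Wisp1 itself overlapped between the groups (edgeR adjusted p = 0.221). For the other 4 genes p was 0.2 or more (exact permutation test).

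Ctgf, Cyr61 and Ankrd1 also ranked the libraries alike, a pattern noticed in these values. In each of the 3 genes control replicate 2 was highest and control replicate 1 lowest, and neomycin replicate 3 was highest and neomycin replicate 2 lowest. Of all genes tested, 1.79% had the same order. The order was taken from these 3 genes, so their own match to it is no support. Of the 22 genes of a YAP/TAZ target signature 5 had it, these 3 and also Amotl2 and Lats2. So did Srf and Tagln of 14 listed targets of the serum response factor, and Mdm2 and Zmat3 of 12 p53 targets. None of 11 immediate early genes and none of 12 HC markers had it. The order was thus not confined to the signature. In neomycin replicate 3, Ankrd1 was 1.69 times, Cyr61 1.35 times, Thbs1 1.30 times and Ctgf 1.29 times the mean of the other neomycin libraries, where the median gene was at 0.996. The ratio was 1.17 for Gadd45a and 1.16 for Wisp2, the genes that rose after neomycin. It was 1.04 for Nov, 0.95 for Wisp1 and 0.98 for Axl. Among the neomycin libraries Ankrd1 had a coefficient of variation of 32.4%, higher than in 99.7% of the 10383 genes of at least 10 CPM, where the median gene had 5.98%. It was 18.4% for Cyr61, 17.5% for Thbs1, 16.3% for Ctgf and 15.7% for Wisp1, whose highest neomycin library was replicate 1.

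**Figure D4:**
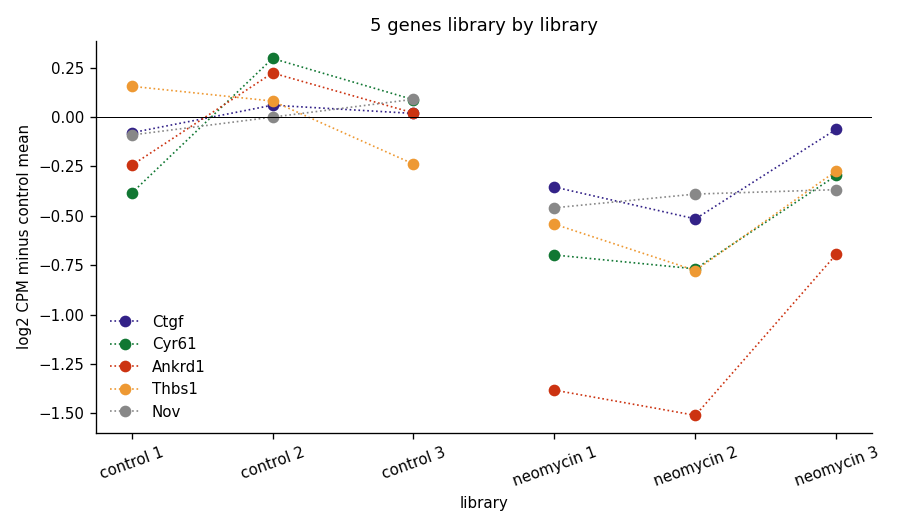
Log2 CPM of 5 genes in each library, minus the mean of the 3 controls; dotted lines only join the points of a gene, and replicates have no order. Ctgf, Cyr61 and Ankrd1 rank the libraries alike, and neomycin replicate 3 lies above neomycin replicates 1 and 2 for these genes and Thbs1, whereas Nov is even among them.

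Of a published 22-gene signature of YAP/TAZ targets, which includes 5 of the 9 genes, the 17 others were read in the same fit. Among them 4 were called, all lower, namely Crim1, Arhgef17, Dock5 and Lats2, and by adjusted p alone 8 were lower and 2 higher. Over all genes tested, 6.60% were called lower, and by adjusted p alone 16.1% were lower and 12.9% higher. Their median log2 fold change was -0.39. Crim1, which encodes a transmembrane protein that binds BMPs, fell from 92.0 ± 12.4 to 46.2 ± 4.71 CPM (log2 fold change -0.99, standard error 0.10, edgeR). Lats2, a Hippo kinase that is itself induced by YAP, went from 45.5 ± 4.74 to 30.2 ± 2.03 CPM (-0.59). Arhgef17 had a log2 fold change of -0.66, and Dock5, a Rac exchange factor, had -0.62. Fjx1 (0.32) and Ccdc80 (0.26) rose.

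The kinases and factors above these targets were read in the same way. Of 16 Hippo core genes and nuclear effectors, 4 were called, all lower, and 8 were lower by adjusted p alone, where all genes tested gave 6.60% and 16.1%. Called were Mob1a (-0.98) and Mob1b (-0.81), the activators of LATS, Nf2 (-0.83), which encodes the upstream activator merlin, and Lats2. The co-activators did not pass, with log2 fold changes of -0.15 for Yap1 (adjusted p = 0.116) and -0.12 for Wwtr1, which encodes TAZ. Nor did the DNA-binding partners Tead1 (-0.08), Tead2 (0.11), Tead3 (-0.07) and Tead4 (-0.50, edgeR adjusted p = 0.107). Yap1, Wwtr1 and Tead4 were still lower in every neomycin library than in any control. The same held for 12 of the 16 genes in all, against 22.5% of all genes tested.

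Other programs that share these genes were read beside them, against 8.84% of all genes called, and 16.1% lower and 12.9% higher by adjusted p alone. Among 9 receptors of CCN proteins and thrombospondin 1, the integrin gene Itgb3 was called lower (-0.63) and Cd36 higher (0.83), and 3 were lower by adjusted p alone. Of 11 immediate early genes, Fosb was called lower (-1.27), and 4 passed lower and 1 higher by adjusted p alone. Of 14 targets of SRF and its cofactor MRTF, 2 passed in each direction by adjusted p alone, with folds under the threshold. The counts for the immediate early list called and for the SRF list were near those shares.

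**Figure D5:**
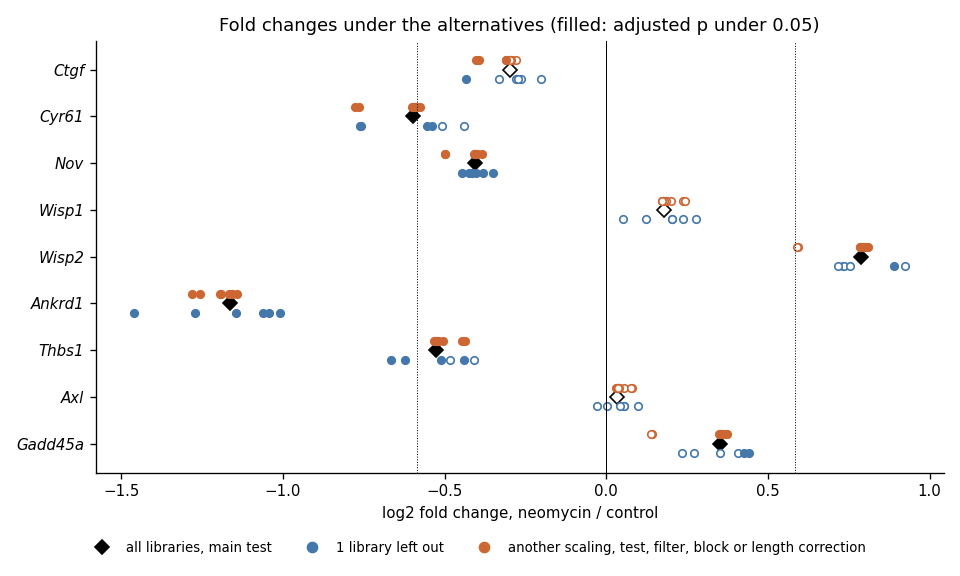
Log2 fold change of each of the 9 genes with all libraries (black diamond), with 1 library left out (blue) and with another scaling, test, filter, block or length correction (orange). Filled symbols have an adjusted p under 0.05 and dotted lines mark a fold of 1.5; Ankrd1 lies beyond -1 throughout, while the symbols of Ctgf, Cyr61, Wisp2, Thbs1 and Gadd45a change between open and filled.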

How the data were processed

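The authors called bases with CASAVA 1.8, trimmed reads with Trimmomatic 0.23, aligned them to mm10 with HISAT2 and counted them per gene with HTSeq. The deposited values are raw counts per gene symbol, with no normalization. The strand setting of the counting is not given in the sources used here. The table holds 24421 symbols, 4596 of them with no count in any sample.

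From the counts, 15988 genes passed filterByExpr, and neomycin was compared with control by the quasi-likelihood test of edgeR 4.0.16 (R 4.3.3) with TMM scaling and Benjamini-Hochberg adjustment over all genes tested. CPM are counts per 1000000 of the TMM-scaled library size. Standard errors are the size of the log2 fold change over the square root of F. A call needed an adjusted p under 0.05 and a fold over 1.5. The study used DESeq2, which was an alternative here (1.42.0), as was limma-voom (3.58.1). Exon lengths and coordinates came from GENCODE M21 on GRCm38, the build of mm10. Genes named beside the 9 were those called in each list, and all genes in families of 5 or fewer. Of the marker lists only examples are named. A list of genes induced by TGF-beta is not reported here. Tecta, Emcn, C1qb, Fjx1, Ccdc80, Yap1, Wwtr1, the TEAD genes, Amotl2, the marker sums without their most abundant gene and the library order were chosen after their values were seen. So were Tek, Srf, Tagln, Mdm2 and Zmat3. The 9 genes and all lists were chosen with earlier results of these data known. For likeness, the 3 nearest genes of at least 1 CPM were taken by root mean square difference of centred log2 CPM (prior count 2).

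The test was checked on simulated counts of 15828 genes, by an adjusted p under 0.05 without the fold threshold. It found 40 of 50 genes changed 1.5-fold, 43 of 50 changed 2-fold and all 50 changed 3-fold, with 13 false calls. With no change put in it made 0 calls. No pair of libraries within a group was as close as sampling noise alone allows (mean chi-square per gene 13.7 to 46.7). The limit of 3 reads for a count of 0 covers counting error only. The gene length correction removed from each library a lowess trend on exon length (span 0.3). Figures used matplotlib 3.10.9.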

Additional observations from a re-analysis of the deposited data

How the results depend on the processing

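The direction of all 9 genes held under every alternative but for Axl, whose log2 fold change was -0.0294 without control replicate 3 and reached 0.0991 without control replicate 1. Leaving out a library in turn gave 1037 to 1672 genes called, 1 to 3 of the 9 genes among them. Only Ankrd1 was left without control replicate 2 or neomycin replicate 2, and also with edgeR's glmTreat against a fold of 1.2, which called 1 of the 9. With no fold threshold 4629 genes and 6 of the 9 passed. Without division by exon length, the change in share of the CCN sum was 2.72 percentage points for Wisp1 and 0.136 for Wisp2, against 1.48 and 0.208 with it. With the replicate number as a block 1465 genes and 3 of the 9 were called. Ctgf then passed as well (adjusted p = 0.0162), and no other of the 9 changed its side of an adjusted p of 0.05. Same-numbered libraries deviated together with r = 0.17, 0.03 and 0.09, and no pairing was assumed. Control replicate 2 was about as close to neomycin replicate 2 (r = 0.026) as to neomycin replicate 3 (r = 0.032). The correction for gene length gave 1167 genes called and lost Wisp2 among the 9. Depth limits only Wisp3 and, in part, Wisp2. The cause of these shifts was not tested.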

Other observations

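Genes whose log2 CPM followed a member most closely over the 6 libraries were read as values, with no test of the likeness. Nearest to Ctgf was Nfkbiz (root mean square difference 0.06 log2 units, log2 fold change -0.31), then Tubb6 (-0.32) and Cdc45 (-0.19). Nearest to Cyr61 were Pim1 (0.11 log2 units, log2 fold change -0.58), Gja1 (-0.61), which encodes connexin 43, and Dusp9 (-0.61). Ankrd1 had no gene closer than Dusp4, a phosphatase of MAP kinases, at 0.17 log2 units (log2 fold change -1.32), followed by Tnfrsf22 (-1.17) and Vwf (-1.37), which encodes von Willebrand factor of the endothelium. Thbs1 was nearest to Ptk2b (0.04 log2 units, log2 fold change -0.52), then Plekha6 (-0.49) and Cpeb3 (-0.46). Nov was nearest to Sesn2 (0.02 log2 units, log2 fold change -0.39), then Rnf19b (-0.37) and Ggta1 (-0.35). Wisp2 was nearest to C3ar1, a complement receptor of myeloid cells, at 0.05 log2 units (log2 fold change 0.74), then 1190007I07Rik (0.78) and Lppos (0.68). Gadd45a was nearest to Rpain (0.31), Vimp (0.36) and Exosc8 (0.35), Wisp1 to Slc39a5 (0.12), Parp3 (0.15) and Fam120c (0.20), and Axl to Rgl3, Arhgap28 and Ago4, all within 0.0243 log2 units.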
